A study of Mus musculus with 35 samples.

Results

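The 6 stable clones that carry a NELFB point mutant, MT194 clones 1 to 3 and MT486 clones 1 to 3, were compared with the 4 populations that carry the same constructs and were harvested 7 days after Ad-Cre, MT194-Cre 1 and 2 and MT486-Cre 1 and 2. The members were taken from the labels alone, as every library of these 4 groups, and they made up 10 of the 35 RNA-seq libraries of the study. The study read polyadenylated RNA of mouse embryonic fibroblasts (MEFs) and asked which functions of NELFB, a subunit of the negative elongation factor (NELF), depend on an intact NELF complex. All MEFs had 1 floxed and 1 null Nelfb allele (Nelfb flox/-), and the clones and populations compared carried a lentiviral construct that drove flag-tagged NELFB from a viral promoter. Clones of either mutant were grown from single cells after Ad-Cre, an adenovirus that delivers Cre recombinase and deletes the floxed allele. The populations received the Cre adenovirus with GFP and were not cloned. For background, 4 populations with the same constructs and a GFP adenovirus without Cre (MT194-GFP 1 and 2, MT486-GFP 1 and 2), which keep the floxed allele, and the libraries of the wild-type construct (WT clones 1 to 3, WT-Cre 1 and 2) were used. The other libraries, used as background only, were WT(N48) and Δ-C60 clones made with the retroviral vector pBabe, WT populations with Ad-GFP, and populations with an empty lentiviral vector (EV), which carries no NELFB, or with both mutations in 1 construct (DMT), which received either adenovirus.

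The clones and the populations were separate experiments. Time since Ad-Cre, passage through a single cell and experiment all changed together between the groups, and their parts in a difference cannot be told apart. A figure legend of the study gives 2 independent experiments for the RNA-seq of the populations. The replicate numbers 1 and 2 of the populations were read as these experiments, which no label states. Each clone was grown from 1 cell.

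NELFB holds the NELF complex together, with NELFA and NELFCD on one side and NELFE on the other. NELF is best known for holding RNA polymerase II shortly after the start of transcription, where many genes are controlled. MEFs are connective-tissue cells of the embryo that make collagen and other matrix proteins, secrete growth factors and chemokines, and respond to interferon and other inflammatory signals.

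The mutagenesis primers show what the constructs change, and they are printed with the Nelfb reference transcript (Nelfb-201, GENCODE annotation of GRCm38) over the same stretch. Capitals mark the 3 codons that the mutation replaces.
MT194 primer: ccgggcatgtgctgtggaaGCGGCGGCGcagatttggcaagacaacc
Nelfb reference: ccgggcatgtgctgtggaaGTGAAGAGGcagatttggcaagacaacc
MT486 primer: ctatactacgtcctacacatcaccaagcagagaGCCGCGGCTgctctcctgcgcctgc
Nelfb reference: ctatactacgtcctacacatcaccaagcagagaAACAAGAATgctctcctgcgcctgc
The MT194 primer differs from the reference at 5 of its 47 bases and turns the residues VKR into AAA at codons 196 to 198 of that transcript, in exon 4 (chr2:25210010-25210018, minus strand). The MT486 primer differs at 6 of its 58 bases and turns NKN into AAA at codons 488 to 490, in exon 10 (chr2:25203169-25203177, minus strand). These positions lie 2 above the numbers in the construct names, and the reference protein that the names count from is not given in the sources used here.

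The clone libraries held 19313672 to 22770765 counts on genes and the Ad-Cre populations 20175394 to 24873566. Reads on no gene made up 9.48% to 11.3% of the reads in the clones and 14.2% to 19.7% in the populations, without overlap. Between 15426 and 15690 genes had a count in a clone and 16035 to 16433 in a population, also without overlap. MT486 clones 1 and 2 were far closer to each other than any other pair. Of 7786 genes at a mean of at least 20 CPM, 0 differed by more than 2-fold between them, and the SD of their log2 ratios was 0.108. Between MT486 clones 1 and 3, 368 genes differed by that much, with an SD of 0.558. Among the MT194 clones it was 170 to 638 genes, with SDs of 0.393 to 0.659. The populations were not all uniform either. Between MT194-Cre 1 and 2, 510 genes differed by that much, with an SD of 0.538. Between MT486-Cre 1 and 2 it was 48 genes, with an SD of 0.416. The counts of MT486 clones 1 and 2 still differed by more than sampling noise, with a chi-square of 5.06 per gene, but 2 preparations of 1 clone would also exceed it. Figure legends of the study describe the clone RNA-seq as a mean over 3 independent clones. From the counts alone, whether MT486 clones 1 and 2 are separate clones cannot be told. They were kept as 2 libraries, as the labels give them, and the main counts are also given with both summed to 1.

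Medians per chromosome also set the clones apart from each other. Over 7698 genes at a mean of at least 20 CPM, the median log2 difference of a clone from its own construct's Ad-Cre populations ran from −0.64 on chromosome 13 to 0.33 on chromosome 15 in MT194 clone 1. In MT194 clone 2 it ran from −0.71 on chromosome 19 to 0.62 on chromosome 11. MT486 clone 3 had −0.75 on chromosome 18 and 0.45 on chromosome 15. These 3 clones and MT194 clone 3 had 6 or 7 chromosomes beyond 0.25 in either direction, MT486 clones 1 and 2 had 2 each, and the difference between experiments 2 and 1 of the populations had 0, with medians from −0.08 to 0.04. All 6 clones had a median above 0 on chromosomes 8, 11 and 15 and below 0 on chromosomes 6, 13 and 18.

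**Figure D1:**
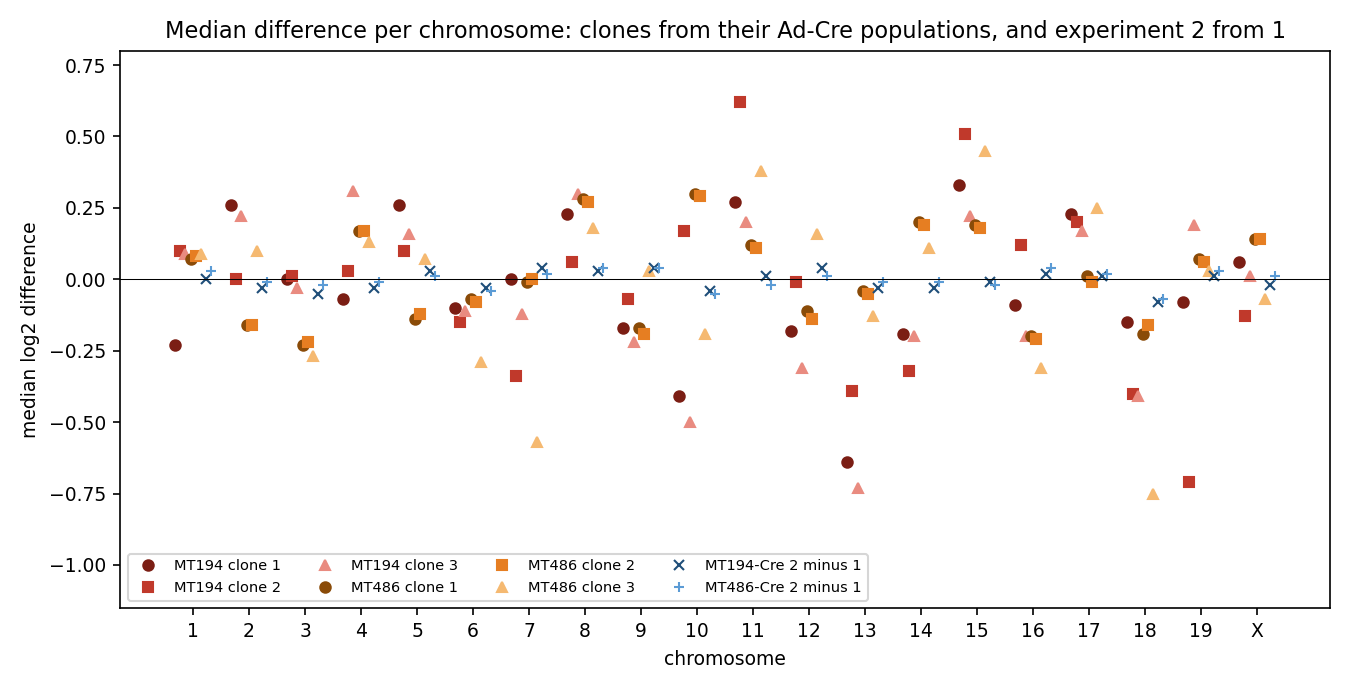
Median log2 difference per chromosome (y axis) for each autosome and X (x axis), for each of the 6 clones from the mean of its construct's Ad-Cre populations (filled symbols) and for experiment 2 minus experiment 1 of the populations (crosses). The populations stay within −0.08 to 0.04 on every chromosome, and MT194 clones 1 and 3 reach −0.64 and −0.73 on chromosome 13.

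The targeted gene was read first. Nelfb (chr2:25199712-25211489) stood at 181, 207 and 141 CPM in the MT194 clones, 177, 154 and 132 CPM in the MT486 clones, 106 and 122 CPM in MT194-Cre and 120 and 128 CPM in MT486-Cre. CPM are counts scaled to a common library size, here corrected for library composition over all 35 libraries, and reads of the construct and of the endogenous gene are in 1 count. All 6 clones lay above all 4 populations, by a log2 fold change of 0.44 ± 0.15 (SE, adjusted p = 0.0391), which is under the fold threshold. The Ad-GFP populations held 63.4 to 95.3 CPM. Nelfa, Nelfcd and Nelfe, whose products are the partners of NELFB, had log2 fold changes of 0.66, 0.66 and 0.91 and were not called in the fit of both mutants. Nelfe passed in MT194 alone, at 1.04 (adjusted p = 0.0185), against 0.78 in MT486 (adjusted p = 0.0366). Of the clone libraries with a wild-type label, clones 1 and 3 held 10.2 and 15.3 CPM of Nelfb and clone 2 held 109 CPM, so clones 1 and 3 do not match a construct that expresses NELFB, and the difference from wild type is also given without them.

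Gene expression differed widely between the clones and the populations, with more genes lower than higher. A gene was called when its adjusted p was under 0.05 and its log2 fold change above 1 or below −1 in edgeR's quasi-likelihood test with construct as a block. Of 13564 genes tested, 677 were higher (4.99%) and 1782 lower (13.1%) in the clones, together 2459 (18.1%), while the median log2 fold change over all genes tested was −0.02. Falls were also deeper: 679 of the genes called lower had fallen more than 4-fold (log2 below −2), and 158 of those called higher had risen that much. In MT194 alone 1711 genes were called (12.6%), 550 higher and 1161 lower, and in MT486 alone 2090 (15.4%), 714 higher and 1376 lower. With MT486 clones 1 and 2 summed, MT486 gave 1167 and the fit of both mutants 2375.

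The genes that differed in both mutants are the core of the comparison. MT194 and MT486 shared 247 genes called higher (1.82% of those tested) and 683 called lower (5.04%), and 4 genes were called in opposite directions, Foxa1, Klf8, Pde8a and Zdhhc2, named after their values were seen. The 247 were 44.9% of the genes higher in MT194 and 34.6% of those higher in MT486, and the 683 were 58.8% and 49.6% of those lower. With MT486 clones 1 and 2 summed the numbers were 193 and 384. Of the 930 genes, 245 higher and 670 lower ones were also called in the fit of both mutants and had all 6 clones on 1 side of all 4 populations. With MT486 clones 1 and 2 summed, 568 of these 915 core genes were still called in both mutants. Over all genes tested, 1992 (14.7%) had the 6 clones above and 2006 (14.8%) below. In the other libraries of the study, which took no part in these calls, all 9 other clones lay above all 16 other populations for 149 of the 245 (60.8%), against 10.2% of all genes tested, and below them for 407 of the 670 (60.7%), against 8.74%. Those clones carry WT, WT(N48) or Δ-C60, and those populations all constructs with Ad-Cre or Ad-GFP other than the 4 libraries compared.

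**Figure D2:**
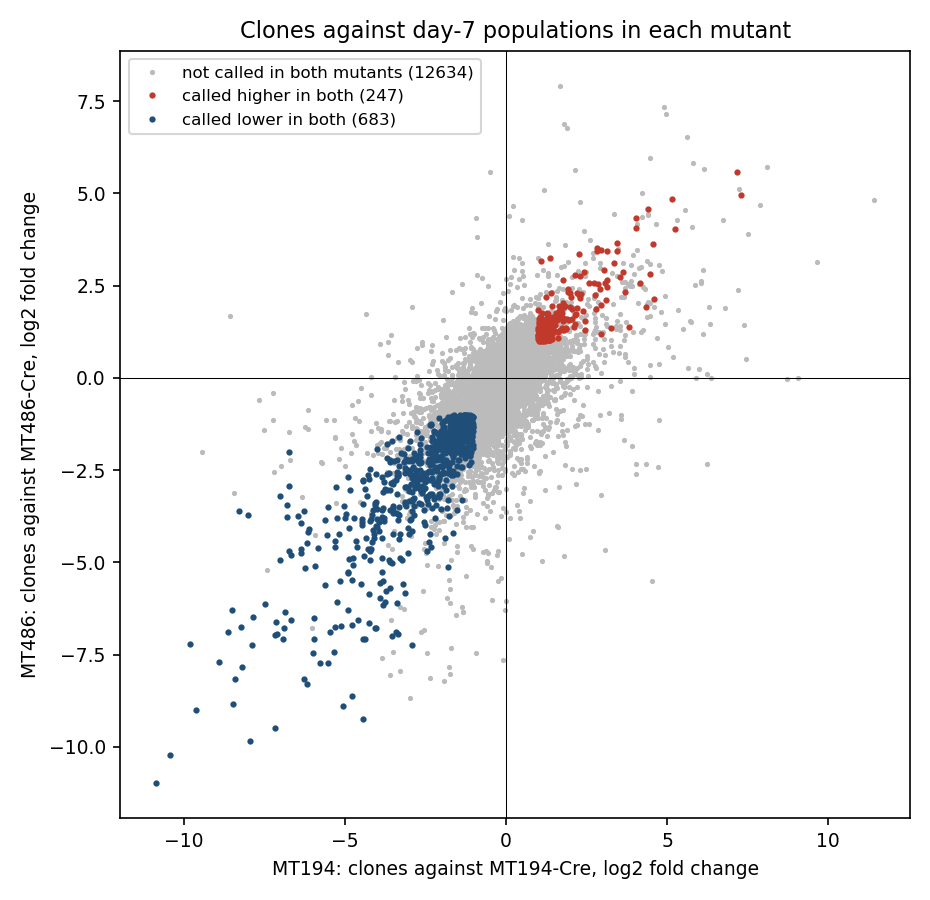
Log2 fold change of clones against Ad-Cre populations in MT194 (x axis) and in MT486 (y axis), 1 point for each of the 13564 genes tested. Red points are the 247 genes called higher in both mutants and blue points the 683 called lower, and the blue points reach past −10 on both axes.

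The choice of population experiment decided how many genes passed. With the populations of experiment 1 alone, 768 genes were called with both mutants in the fit, 5 in MT194, 52 in MT486 and 4 in both mutants. Dlk1, Loxl2 and Malat1, named after their values were seen, were among those 4, and Smoc1 was among those of MT194. With the populations of experiment 2 alone 3152 were called with both mutants in the fit. On these populations 1879 genes were called in MT194, 2082 in MT486 and 1108 in both mutants. Leaving out MT194-Cre 2 alone left 85 genes called in both mutants. Of the 76 named genes called, 43 kept their call in each of the 20 alternative fits.

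The 6 clones rose together in genes of DNA replication. Of 45 genes of the list for DNA replication and S phase, the part of the cell cycle in which DNA is copied, 32 rose, 0 fell, and the median log2 fold change was 1.19, against 4.99% called higher and a median of −0.02 over all genes tested. These 4.99%, with 13.1% called lower, are the background for each list counted against the Ad-Cre populations. Both mutants called 22 of them. Mcm5 (chr8:75109569-75128439), a subunit of the helicase that opens DNA for copying, stood at 408, 277 and 545 CPM in the MT194 clones, 531, 511 and 563 CPM in the MT486 clones, and 145, 78.9, 160 and 108 CPM in MT194-Cre 1, MT194-Cre 2, MT486-Cre 1 and MT486-Cre 2. Every clone lay above every population, and Mcm5 rose by 1.90 on the log2 scale (SE 0.24, adjusted p = 0.000445). The other helicase subunits Mcm3, Mcm6 and Mcm7 rose by 1.47, 1.35 and 1.21. Cdc6, which loads the helicase, ran from 39.7 to 69.7 CPM in the clones and from 13.4 to 24.2 CPM in the populations. Tk1, which makes thymidine nucleotides, rose by 1.65, Rrm2, a subunit of ribonucleotide reductase, by 1.35, and Pcna, the sliding clamp of the polymerases, by 1.07. With the populations of experiment 1 alone 15 of the list rose, and with those of experiment 2 alone 41.

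Of 40 genes of mitosis tested, 10 rose and 0 fell, against 4.99% and 13.1% of all genes tested, and 30 were not called. The log2 fold change was positive for 39 of them, with a median of 0.81. Aurkb, a mitotic kinase, rose by 1.31, from 17.1 to 36.1 CPM in the populations to 49 to 103 CPM in the clones. Birc5, its partner in the chromosomal passenger complex, rose by 1.34. Top2a, which untangles chromosomes, ran from 450 to 763 CPM in the clones and from 220 to 387 CPM in the populations, a difference of 0.92 that did not pass the fold threshold. The summed level of the list was 3740 and 4060 CPM in experiment 1 of the populations and 2150 and 3000 in experiment 2, against 4560 to 6480 in the clones, and the number that rose was 0 with experiment 1 alone and 29 with experiment 2 alone.

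Replication-dependent histone genes, whose messages are made in S phase, did not go with these lists. Of 23 clustered histone genes tested, 13 fell and 0 rose, with a median of −1.16. In MT194 alone 10 were called lower and in MT486 alone 2, and 2 were called in both mutants. Hist1h1c, a linker histone, ran from 9.4 to 32.2 CPM in the clones and from 35.8 to 87.6 CPM in the populations and fell by 1.28. Against the Ad-GFP populations 6 of 16 rose and 1 fell. Histone messages carry no poly(A) tail as a rule and are near-copies of each other, so their counts in polyadenylated libraries are uncertain.

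Promoters of the replication genes were searched for the E2F-like motifs TTTCCCGC and TTTGGCGC on both strands, in windows from 250 bases before to 50 bases after the RefSeq start (GRCm38.p6). E2F factors are the classical activators of S-phase genes, so a share above that of all genes can follow from the choice of list alone. A match was present in 10 of 25 promoters of genes called higher on this list (40%), in 1 of 11 of those tested and not called (9.09%), in 311 of 10218 promoters of all genes tested (3.04%) and in 441 of 27025 of all promoters (1.63%). Stretches of 80 bases upstream of the RefSeq start are printed for 4 genes described here, with the matches in capitals on the strand of the gene. Those of Mcm7 and Cdc6 lie inside the gene as GENCODE places it.
Mcm5 promoter (chr8:75109324-75109403, plus strand): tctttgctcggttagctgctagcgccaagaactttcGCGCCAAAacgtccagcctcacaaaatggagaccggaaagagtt
Mcm6 promoter (chr1:128359741-128359820, minus strand): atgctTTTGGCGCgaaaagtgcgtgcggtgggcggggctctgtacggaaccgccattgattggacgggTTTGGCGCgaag
Mcm7 promoter (chr5:138172005-138172084, minus strand): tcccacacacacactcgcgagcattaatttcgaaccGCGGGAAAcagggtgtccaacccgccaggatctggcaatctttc
Cdc6 promoter (chr11:98907977-98908056, plus strand): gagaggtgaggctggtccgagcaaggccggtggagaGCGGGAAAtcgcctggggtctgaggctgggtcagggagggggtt
Each stretch holds 1 match apart from that of Mcm6, which holds 2. A match describes letters in the window and says nothing of binding.

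Interferon-stimulated genes were lower in the clones. Type I interferons act through a complex that holds STAT2 and IRF9 and binds the interferon-stimulated response element in promoters, and the genes they switch on encode antiviral proteins. Of 46 such genes tested, 39 fell and 0 rose, with a median log2 fold change of −2.45, against 13.1% called lower and a median of −0.02 over all genes tested. Both mutants called 10. Stat2 (chr10:128270559-128292849) stood at 13.8, 37.3 and 8.42 CPM in the MT194 clones, 35.7, 38.5 and 8.32 CPM in the MT486 clones, and 183 to 283 CPM in the populations. The clones did not overlap the populations, and Stat2 fell by 3.33 (SE 0.50, adjusted p = 0.00137). In the Ad-GFP populations it ran from 151 to 193 CPM. Ifit3, which binds viral RNA, fell by 3.32. Zbp1, a sensor of nucleic acids, fell by 4.16 and Gbp6, a GTPase of the guanylate-binding family, fell by 4.08. Gbp4 had no count in 5 of the 6 clones, 0.502 CPM in MT194 clone 2 and 2.66 to 4.84 CPM in the populations. Counts of the Ifit, Oas and Gbp families are uncertain where members are near-copies of each other.

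Bst2, which tethers budding viruses to the cell, separated the clones. It stood at 12.3, 30.4 and 8.99 CPM in the MT194 clones, 164, 163 and 10.3 CPM in the MT486 clones and 297, 594, 335 and 374 CPM in the populations, and fell by 3.37 (adjusted p = 0.0168). MT486 clones 1 and 2 thus stood apart from the other 4 clones, while still below every population. Isg15 also set MT486 clones 1 and 2 apart, at 45.3 and 43.4 CPM. The other 4 clones held 2.92 to 24.7 CPM of it and the populations 52.5 to 105 CPM. Summed over the list, MT486 clones 1 and 2 stood at 1370 and 1440 CPM, MT194 clone 2 at 1080, the other 3 clones at 447 to 576 and the populations at 2670 to 3290. With experiment 1 of the populations alone 11 of the list fell, and with experiment 2 alone 25.

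Promoters of interferon-stimulated genes were searched for the spaced repeat of the response element (GAAA, any 2 bases, GAAA) on both strands and in the same 300-base windows as above. It was present in 17 of 25 promoters of the genes called lower on this list (68%), in 2 of 7 of those not called (28.6%), in 307 of 10218 of all genes tested (3%) and in 943 of 27025 of all promoters (3.49%). The list was drawn from known interferon targets, which were partly defined by such elements. Stretches of 80 bases upstream of the start follow for 5 genes, with the matches in capitals.
Stat2 promoter (chr10:128270248-128270327, plus strand): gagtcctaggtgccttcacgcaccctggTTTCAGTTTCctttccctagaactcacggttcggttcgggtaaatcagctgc
Ifit3 promoter (chr19:34583355-34583434, plus strand): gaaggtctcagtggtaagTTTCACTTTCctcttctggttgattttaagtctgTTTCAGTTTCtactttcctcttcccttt
Bst2 promoter (chr8:71537555-71537634, minus strand): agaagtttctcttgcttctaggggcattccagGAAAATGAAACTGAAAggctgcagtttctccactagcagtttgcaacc
Isg15 promoter (chr4:156200846-156200925, minus strand): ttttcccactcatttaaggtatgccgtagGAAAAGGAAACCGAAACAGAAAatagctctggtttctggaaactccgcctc
Rsad2 promoter (chr12:26456528-26456607, minus strand): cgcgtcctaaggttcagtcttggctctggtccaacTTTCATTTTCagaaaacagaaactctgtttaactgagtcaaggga
The stretch of Isg15 holds 3 overlapping matches, those of Ifit3 and Bst2 hold 2, and Stat2 and Rsad2 hold 1. Rsad2, which makes an antiviral nucleotide, ran from 0 to 2.64 CPM in the clones and from 13 to 26.4 CPM in the populations.

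Antigen presentation went down with the interferon genes. MHC class I molecules show peptides from inside the cell to T cells, and B2m is their shared light chain. Of 18 genes of class I presentation tested, 14 fell and 0 rose, with a median of −1.76. In MT194 alone 5 were called lower, in MT486 alone 11, and 3 in both mutants. B2m stood at 589, 674 and 566 CPM in the MT194 clones, 795, 822 and 349 CPM in the MT486 clones and 1610, 4170, 1640 and 2490 CPM in the populations, and fell by 1.99 (adjusted p = 0.00121). Tap1, which pumps peptides to the class I molecules, fell by 2.01. H2-K1, a class I heavy chain, ran from 78 to 429 CPM in the clones and from 534 to 1770 in the populations, although reads of the H2 genes may be shared among near-copies. Tap1 and H2-K1 were called in the fit of both mutants but passed in neither mutant alone. With experiment 1 alone 3 of the list fell.

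C4b and several other deep falls belong to the complement system, secreted proteins of innate immunity that mark targets for removal, and its regulators. Of 20 such genes tested, 16 fell, 1 rose and the median was −1.91. This list, the acute-phase list and the lysosomal list were put together after the values were seen, so the counts describe them and are no evidence of their own. C4b (chr17:34728380-34743882), a component of the classical pathway with the near-copy C4a beside it, stood at 21.8, 30.2 and 6.11 CPM in the MT194 clones, 5.8, 7.04 and 5.26 CPM in the MT486 clones and 222, 813, 156 and 365 CPM in the populations. It fell by 5.12 on the log2 scale (SE 0.53, adjusted p = 0.000348), the largest fall among the named genes that were called in both mutants without overlap and had 10 or more counts in all 10 libraries. Serping1, the inhibitor of the first component, ran from 1.68 to 11.2 CPM in the clones and was at 93.2 CPM or more in the populations, and it fell by 4.95. Clu, a chaperone that blocks the terminal complex, fell by 4.46. Cfi, the protease that inactivates C3b and C4b, had 1 count each in MT194 clones 1 and 2, 0 in the other 4 and 61 to 275 counts in the populations.

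Acute-phase proteins, which tissues secrete during inflammation, fell in 14 of 15 cases, with a median of −2.57. Lbp, which carries bacterial lipopolysaccharide, ran from 9.85 to 120 CPM in the clones and from 388 to 1620 CPM in the populations and fell by 4.58. Hp, the haemoglobin carrier haptoglobin, fell by 3.92 and Lcn2, which withholds iron from bacteria, by 3.05. Saa3, a serum amyloid, differed between the clones, with 247 CPM in MT194 clone 1, 212 and 321 in MT486 clones 1 and 2 and 4.47 to 23.9 in the other 3, against 2210 to 8660 in the populations. It fell by 5.16 (adjusted p = 0.0105) in the fit of both mutants and passed in neither mutant alone. The populations of experiment 2 held more of these messages than those of experiment 1, with a summed level of 22300 and 13200 CPM against 6990 and 7040 CPM, and the clones held 795 to 1680.

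Of 26 chemokines and cytokines tested, 11 fell and 2 rose, against 13.1% and 4.99% of all genes tested. Cxcl12 (chr6:117168535-117181367), which attracts leukocytes and stem cells and had the highest mean CPM of the lower core genes, stood at 1020, 1880 and 1050 CPM in the MT194 clones, 983, 1130 and 239 CPM in the MT486 clones and 7960, 20800, 6020 and 10900 CPM in the populations. Each clone lay below each population, MT486 clone 3 lowest, and Cxcl12 fell by 3.48 (SE 0.45, adjusted p = 0.000486). Il6, a cytokine of the acute-phase response, fell by 2.57, and Ccl9, which attracts macrophages and dendritic cells, by 2.84. Ccl2, which attracts monocytes, went the other way and rose by 1.34 (adjusted p = 0.0169), with 443 CPM in MT194 clone 2, 106 to 278 in the other clones and 60.2 to 128 in the populations. Ccl2 passed in neither mutant alone.

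Matrix genes, which build and remodel the space between fibroblasts, were lower as well. Of 39 genes for matrix proteases and matrix proteins, 25 fell and 0 rose, with a median of −1.31, and 10 were called in both mutants. Dcn (chr10:97479609-97518143), the collagen-binding proteoglycan decorin, stood at 238, 648 and 282 CPM in the MT194 clones, 451, 546 and 192 CPM in the MT486 clones and 2060, 6330, 1230 and 2420 CPM in the populations. It fell by 2.88 (SE 0.48, adjusted p = 0.00163) without overlap. Fn1, the adhesion protein fibronectin, fell by 2.01 although MT194 clone 2, at 12200 CPM, lay above MT486-Cre 1, at 11800 CPM, and the other clones held 2350 to 4450. Fbln2, a fibulin of elastic fibres, fell by 1.82 and Adamts5, which cuts aggrecan, by 3.13. Loxl2 (chr14:69609068-69695834), which crosslinks collagen, fell by 5.66, to 0.0962 to 0.365 CPM in the MT194 clones and 1.83 to 2.38 in the MT486 clones, from 19.2 to 87.8 in the populations. Mmp3, the protease stromelysin, stood at 105 CPM in MT194 clone 2, at 0.144 to 1.68 in the other 5 clones and at 145 to 533 in the populations.

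Collagen genes moved in both directions, with 4 of 28 higher and 6 lower, against 4.99% and 13.1% of all genes tested, and 18 not called. Col1a1, the one with the highest CPM, ran from 2330 to 5400 CPM in the clones and from 3410 to 8400 in the populations, and its difference of −0.69 did not pass (adjusted p = 0.12). Col12a1, a collagen that decorates fibrils, fell by 2.11. Col15a1, a collagen of basement membrane zones, had the largest rise of the list, 5.56 (SE 1.6, adjusted p = 0.0215), and passed in neither mutant alone. It stood at 135, 17.9 and 169 CPM in the MT194 clones, 0.426, 0.575 and 46.4 CPM in the MT486 clones and 0.965, 0.989, 0.692 and 0.89 CPM in the populations, so MT486 clones 1 and 2 lay below all populations. Col2a1, the main collagen of cartilage, rose and is described with the cartilage genes. With experiment 1 of the populations alone 8 matrix genes and 1 collagen gene fell, and with experiment 2 alone 27 and 10. Without MT194-Cre 2, 16 matrix genes and 1 collagen gene fell.

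Lysosomal proteases and related proteins, which break down material taken up by the cell, fell in 17 of 22 cases, with a median of −1.45 and 13 called in both mutants, in a list put together after the values were seen. Ctsd (chr7:142375911-142388038), the aspartic protease cathepsin D, stood at 1300, 804 and 883 CPM in the MT194 clones, 654, 685 and 491 CPM in the MT486 clones and 1750, 4420, 1420 and 2490 CPM in the populations. It fell by 1.69 (adjusted p = 0.00141). Ctsb, a cysteine cathepsin, fell by 1.37 and ran from 864 to 1350 CPM in the clones and from 1750 to 4210 in the populations.

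**Figure D3:**
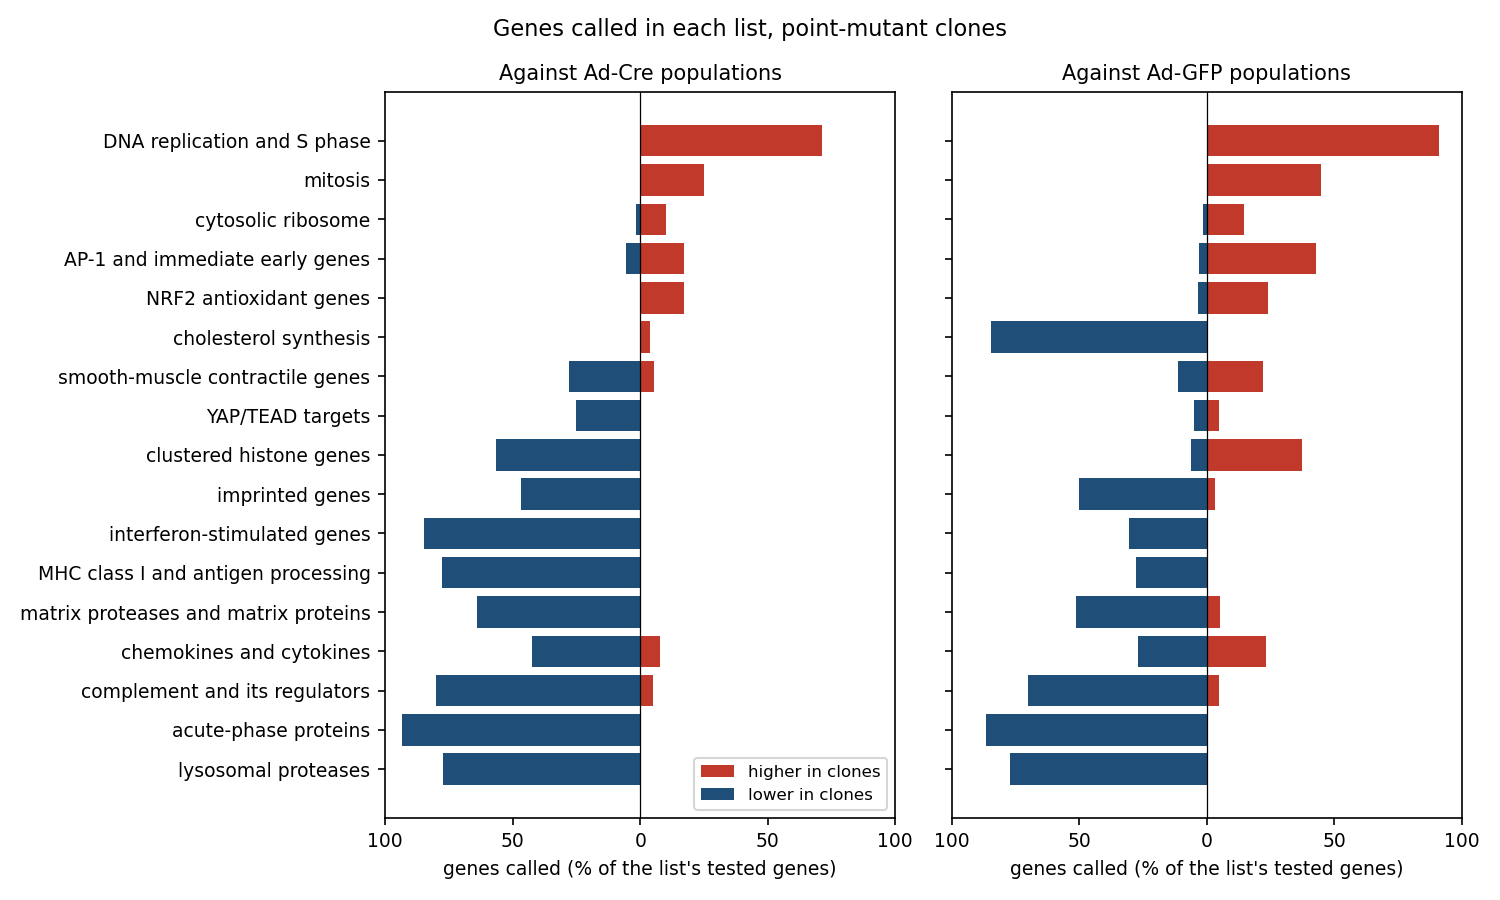
Share of each list's tested genes called higher (red, to the right of 0) and lower (blue, to the left) in the 6 clones, in percent, against the 4 Ad-Cre populations (left panel) and the 4 Ad-GFP populations (right panel). Against Ad-Cre, 32 of 45 replication genes were higher and 39 of 46 interferon-stimulated genes lower. Cholesterol synthesis, the histone genes, the smooth-muscle genes and the YAP/TEAD targets are among the lists whose shares differ between the panels.

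Among imprinted genes, of which only the copy from 1 parent is active in at least some tissues, Dlk1 fell furthest. Of 30 tested, 14 fell, against 13.1% of all genes tested, 0 rose and 16 were not called. The median was −1.90, and 7 were called in both mutants. The list includes Dcn, which is also on the list of fibroblast markers. Dlk1 (chr12:109452823-109463336), a membrane protein that restrains differentiation, stood at 0.281, 0.228 and 0.289 CPM in the MT194 clones, 0.213, 0.192 and 0.09 CPM in the MT486 clones and 245, 477, 156 and 245 CPM in the populations. These were 2 to 6 counts per clone against 3375 to 9656 per population, and Dlk1 fell by 10.34 on the log2 scale (SE 0.30, adjusted p = 1.02e-08). Loss of Dlk1 was not shared by every clone of the study: the Δ-C60 clones held 2450, 0.289 and 426 CPM, the WT(N48) clones 0.197, 0.434 and 26.7. The libraries labelled WT clone held 0.153, 0.124 and 0.249 CPM. Ndn, a growth suppressor of neurons, had 0 to 1.69 CPM in the clones and 14.8 to 50.2 in the populations, and Peg3, a zinc-finger protein, fell by 3.52. Usp29 had no count in any of the 6 clones and 0.49 to 1.08 CPM in the populations, which is at least 5.41-fold lower with 3 counts per library taken as the limit.

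Igf2, a fetal growth factor, was lower in each MT486 clone than in any MT194 clone. It stood at 362, 66.1 and 30.3 CPM in the MT194 clones, 1.58, 1.77 and 0.495 CPM in the MT486 clones and 403, 1120, 243 and 460 CPM in the populations. MT194 clone 1 overlapped the populations, and Igf2 fell by 5.66 with a wide error (SE 1.5, adjusted p = 0.0152). The difference between the mutants, −5.79 (SE 1.51), did not pass edgeR's interaction test (adjusted p = 0.385). Meg3, the non-coding RNA beside Dlk1, ran from 0 to 25.2 CPM in the clones and from 58.4 to 177 in the populations.

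Some genes of the core were off in the clones. Of the 670 lower genes, 14 had no count in any of the 6 clones. Gpc3 (chrX:52272426-52613950), a cell-surface proteoglycan that restrains growth, had 0 counts in each clone and 169 to 296 counts in the populations, at 6.52 to 13.9 CPM, so its level was at least 77.8-fold lower. Gpc3 also had 0 counts in the 3 libraries labelled WT clone and stood at 0.0381 to 0.724 CPM in the Δ-C60 clones, but at 19.6, 8.54 and 15 CPM in the WT(N48) clones. Avpr1a, a vasopressin receptor, had 5 counts in MT194 clone 2, 0 in the other 5 and 77 to 319 in the populations. In the other direction Nebl (chr2:17343909-17731464), an actin-binding protein, rose from 1 to 3 counts per population to 18 to 400 per clone.

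**Figure D4:**
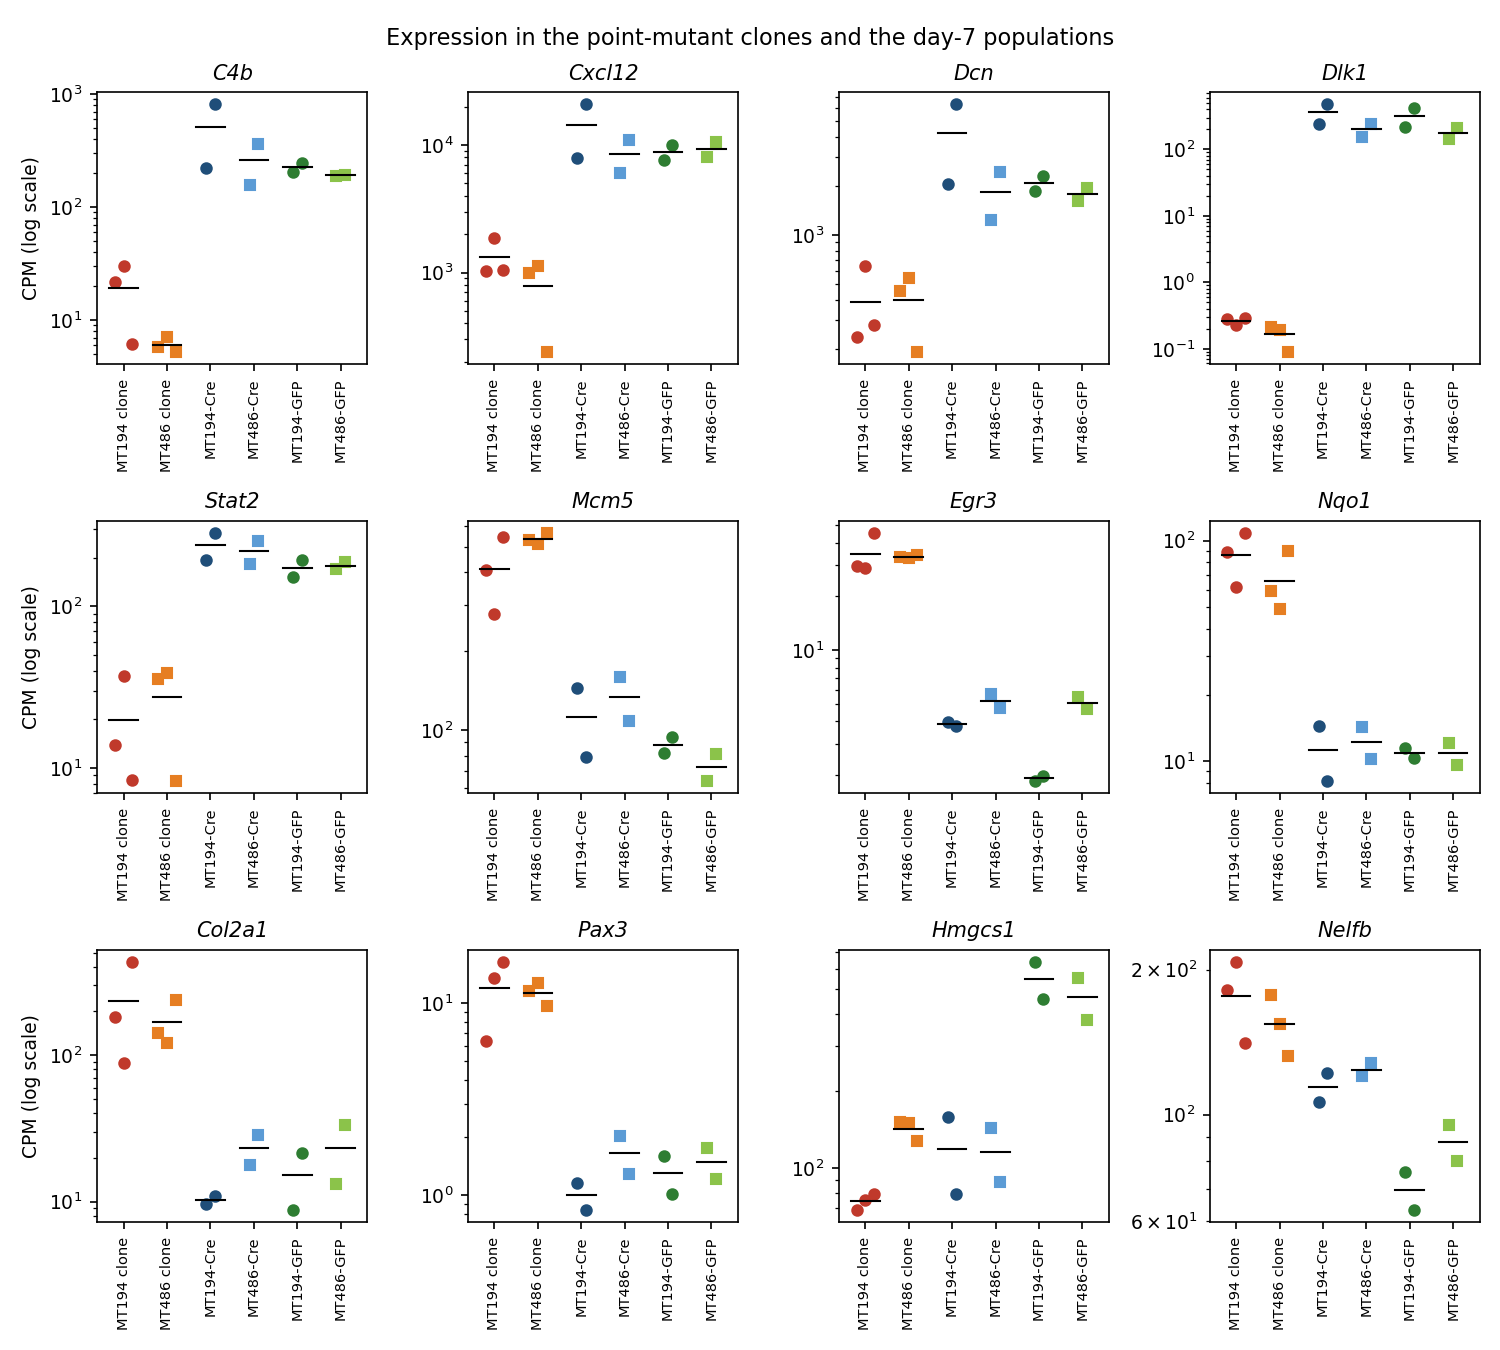
CPM on a log scale (y axis) of 12 genes in each library of the MT194 and MT486 clones and of the populations with Ad-Cre or Ad-GFP, with 1 point per library and a bar at the mean of each group. The clones lie apart from all populations for C4b, Cxcl12, Dcn, Dlk1, Stat2, Mcm5, Egr3, Nqo1, Col2a1 and Pax3, and Hmgcs1 is as low in the clones as in the Ad-Cre populations.

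Of the named genes that were called in both mutants without overlap, with 10 or more counts in all 10 libraries, Ngef rose most. Ngef (chr1:87476834-87573870), an exchange factor for small GTPases, stood at 19.9, 2.14 and 21.1 CPM in the MT194 clones, 8.96, 8.77 and 23 CPM in the MT486 clones and 0.6 to 0.89 CPM in the populations, and rose by 4.18 (SE 0.66, adjusted p = 0.00138). Traf1, an adaptor of TNF receptors, rose by 3.23, Lef1, a factor of the Wnt pathway, by 3.11 and Hr, a corepressor of nuclear receptors, by 3.44. Syt13, a synaptotagmin, reached 249 CPM in MT194 clone 1 and 16.2 to 97.1 in the others, from 3.46 to 8.26 in the populations. Among the core genes with the highest mean CPM, Tubb5, a beta-tubulin, rose by 1.19, from 923 to 1450 CPM in the populations to 2190 to 3640 in the clones, and S100a6, a calcium-binding protein, by 1.13.

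Egr3 (chr14:70077203-70082614), an immediate early transcription factor, showed 1 of the most even rises. It stood at 29.7, 29 and 45.1 CPM in the MT194 clones, 33.3, 33 and 34.1 CPM in the MT486 clones and 3.97, 3.76, 5.68 and 4.76 CPM in the populations, and rose by 2.88 (SE 0.19, adjusted p = 2.16e-05). Of 35 AP-1 and immediate early genes, 6 rose and 2 fell, against 4.99% and 13.1% of all genes tested, so the 8 called lay near the 18.1% called overall. Fosl1, a partner of JUN in AP-1, rose by 1.31 and Dusp4, which switches off MAP kinases, by 1.73, whereas Spry1, an inhibitor of receptor kinase signalling, fell by 1.29. Spry1 passed in neither mutant alone.

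Of 29 genes of the NRF2 antioxidant response, 5 rose and 0 fell, against 4.99% and 13.1% of all genes tested, with a median of 0.56. The 5 called, all of them higher, lay near the 18.1% called in both directions over all genes, and 2 were called in both mutants. Nqo1 (chr8:107388225-107403206), a quinone reductase, ran from 48.9 to 108 CPM in the clones and from 8.16 to 14.4 CPM in the populations and rose by 2.65 (SE 0.27, adjusted p = 0.000179). Txn1, the redox protein thioredoxin, rose by 1.16, and Fth1, the ferritin heavy chain, did not pass, at −0.32. Among targets of Trp53, whose product halts damaged cells, 3 of 31 rose and 2 fell. Phlda3, which restrains AKT, rose by 1.54 and the death receptor Fas fell by 1.18. The 5 of 31 called lay near the 18.1% of all genes tested, and the share that fell lay below the 13.1% of all genes.

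Of 68 cytosolic ribosomal protein genes tested, 7 rose and 1 fell, against 4.99% and 13.1% of all genes tested. Taken in both directions together, the share called lay below the 18.1% of all genes. Of these 68 genes, 30 had all 6 clones above all 4 populations, against 14.7% of all genes tested. The log2 fold change was positive for 54 of them, with a median of 0.60. Rps2 rose by 2.13, from 49.6 to 95.1 CPM in the populations to 151 to 453 in the clones, and Rpl8 by 1.21. Rpl24, counted at only 0.192 to 1.42 CPM, fell by 1.39 and passed in neither mutant alone. Ribosomal protein genes have many pseudogene copies, and reads that match several places were dropped by the mapping filter, so their levels are uncertain.

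For smooth-muscle contractile genes, 5 of 18 fell and 1 rose. Tagln, an actin-binding protein, stood at 7.92, 11.4 and 25.9 CPM in the MT194 clones, 102, 86.1 and 19.6 CPM in the MT486 clones and 148 to 191 CPM in the populations, and fell by 2.49. Lmod1, which starts actin filaments, fell by 3.69, while Tpm1, a tropomyosin, did not pass, at 0.41. YAP/TEAD targets, read as a sign of mechanical signalling, fell in 5 of 20 cases, with Amotl2 at −1.29 and F3, tissue factor, at −1.68. Of 33 genes of the ATF4 stress response, 1 rose and 2 fell. Psat1, of serine synthesis, rose by 1.11 and Stc2, a secreted glycoprotein, fell by 3.43. Of 14 Hox genes 1 fell, Hoxb8, by 2.98. Over all genes tested 4.99% rose and 13.1% fell, so the ATF4 and Hox shares lay below the background.

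In the fit of both mutants, no gene of NELF and the pausing machinery and none of the citrate cycle passed both thresholds. Taken alone, MT194 had Nelfe (1.04) higher, Ccnt2 (−1.03), a cyclin of P-TEFb, lower and Mdh2 (1.05), a malate dehydrogenase, higher, and MT486 had Pcx (−1.36), pyruvate carboxylase, lower, all but Nelfe named after their values were seen. In edgeR's test 13 of 24 genes of NELF and the pausing machinery had an unadjusted p under 0.05 and 9 an adjusted one. For the citrate cycle, which burns carbon in mitochondria, it was 18 and 15 of 27, and over all 13564 genes 7044 and 5739. DESeq2 also called 0 in both lists.

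Marker genes of cell types were read to check the labels. The fibroblast markers Vim, Col1a1 and Prrx1 were high in all 10 libraries, at 1300 to 3470, 2330 to 8400 and 313 to 740 CPM, and Thy1 was at 0 to 0.116 CPM in all of them. Of 14 fibroblast markers tested 6 fell and 2 rose. Pdgfra, the receptor of a fibroblast growth signal, fell by 1.54, Fap by 4.67 and Lum by 5.37, while S100a4 rose by 2.53 and Twist2 by 1.58. Lum was low throughout, with 0 to 3 counts per clone and 14 to 54 per population. The summed level of this list was 12600 to 26200 CPM in the clones and 22900 to 52000 in the populations. In bulk RNA, fewer cells of a type and less RNA per cell cannot be told apart.

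Of 6 cartilage markers tested 3 rose and 1 fell. Col2a1 (chr15:97975602-98004695) stood at 183, 88.2 and 429 CPM in the MT194 clones, 141, 121 and 239 CPM in the MT486 clones and 9.57, 11, 17.7 and 28.6 CPM in the populations, and rose by 3.59 (SE 0.56, adjusted p = 0.00161). Sox9, the factor that drives cartilage formation, rose by 1.52 while Comp fell by 2.67. Comp was low throughout, with 1 to 10 counts per clone and 17 to 44 per population. Acan, the proteoglycan aggrecan, stood at 3.98, 0.0456 and 10.5 CPM in the MT194 clones, 4.65, 3.35 and 9.9 CPM in the MT486 clones and 0.54, 0.297, 0.923 and 0.801 CPM in the populations. MT194 clone 2, with 1 count, lay below all populations and the other 5 clones above them. Acan was called in the fit of both mutants, at 3.08 (adjusted p = 0.0266), but in neither mutant alone (adjusted p = 0.116 and 0.162). Pax3 (chr1:78101267-78197134), a factor of muscle and neural crest progenitors, stood at 6.32, 13.5 and 16.3 CPM in the MT194 clones, 11.5, 12.8 and 9.63 CPM in the MT486 clones and 0.84 to 2.03 CPM in the populations, and rose by 3.12. Myod1, which commits cells to muscle, was at 12.6 CPM in MT194 clone 1, 0.962 in MT194 clone 3 and 0 to 0.0853 elsewhere, and was not called. Of 6 neural markers tested, Sox2, Tubb3 and Map2 rose, Sox2 with a call in neither mutant alone. Sox2, a factor of stem and neural progenitor cells, was at 42 CPM in MT194 clone 3, 4.73 in MT194 clone 1, 2.43 in MT486 clone 3, 0.228 in MT194 clone 2 and 0 in MT486 clones 1 and 2, and at most 0.0462 in the populations.

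Leukocyte markers fell in 3 of 7 cases, Lyz2, Fcgr1 and Cd14. Ptprc, which defines leukocytes, was at 0 to 0.0494 CPM in all 10 libraries. Summed over the list, the level was 20.8 to 122 CPM in the clones and 213 to 405 in the populations, most of it Cd14, at 15 to 107 CPM in the clones and 205 CPM or more in the populations. Epcam, which defines epithelial cells, was at 0 in the populations and at most 0.0937 CPM in the clones, and of 2 epithelial markers tested, edgeR called 0 with both at an unadjusted p under 0.05, while DESeq2 called 2. Of 4 endothelial markers Flt1, a receptor of VEGF, rose by 3.00 and Egfl7 fell by 1.18, and of 4 adipocyte markers Pparg, the factor that drives fat-cell formation, rose by 1.18 and Fabp4, a fatty-acid carrier, fell by 2.65. Flt1 passed in neither mutant alone. Xist, which silences an X chromosome, ran from 270 to 2200 CPM in the clones and from 1290 to 2820 CPM in the populations, and was not called. The part of other cell types in the differences was not tested beyond these levels.

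Both mutants were then compared with each other. Only 2 genes of 13564 (0.0147%) passed the test of the difference between the change in MT486 and that in MT194, and 1165 had an unadjusted p under 0.05. DESeq2 called 134 on the same libraries. Pde8a, a phosphodiesterase of cyclic AMP, stood at 16.5, 15.7 and 20.9 CPM in the MT194 clones, 0.171, 0.575 and 0.405 CPM in the MT486 clones and 5.71 to 6.19 CPM in the populations, so it rose by 1.59 in MT194 and fell by 4.01 in MT486. The difference of −5.60 had an SE of 0.53 and an adjusted p of 0.0102. Rassf4, a RAS-association protein, fell by 1.81 in MT194 and by 5.12 in MT486, with 5.89 to 8.71 CPM in the MT194 clones, 0.768 to 1.03 in the MT486 clones and 22.8 to 33 in the populations. With either experiment of the populations alone edgeR's test passed 0 genes, while 536 and 507 had an unadjusted p under 0.05.

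Set against the Ad-GFP populations, which share the clones with the main comparison, 1219 of 13569 genes were higher (8.98%) and 1964 lower (14.5%). Lists with most of their calls in 1 direction included replication, 41 of 45 higher, mitosis, 18 of 40 higher, imprinted genes, 16 of 32 lower and 1 higher, complement, 14 of 20 lower and 1 higher, acute-phase proteins, 13 of 15 lower, lysosomal proteases, 17 of 22 lower, and matrix, 20 of 39 lower and 2 higher. For interferon-stimulated genes 14 of 46 were lower, with a median of −1.21 in place of −2.45, and for antigen presentation 5 of 18. Cholesterol synthesis, the pathway that SREBP2 switches on when sterols are low, differed between the comparisons. Against Ad-Cre 0 of 26 fell, with a median of −0.19, and against Ad-GFP 22 of 26 fell, with a median of −2.04. Hmgcs1 (chr13:119690379-119708260), an early enzyme of the pathway, stood at 68.9, 75 and 79.7 CPM in the MT194 clones, 151, 150 and 128 CPM in the MT486 clones, 158, 79.1, 144 and 88.3 CPM in the Ad-Cre populations and 636, 456, 555 and 380 CPM in the Ad-GFP populations. Smooth-muscle genes had 4 of 18 higher and 2 lower against Ad-GFP, with a median of 0.70 in place of −0.20. Tagln, at 23.4 to 40.1 CPM in the Ad-GFP populations, differed by −0.15 there (adjusted p = 0.87) and Cnn1, calponin, by 0.24 (adjusted p = 0.703), against −2.49 and −2.79 with Ad-Cre. YAP/TEAD targets had 1 of 20 higher and 1 lower, with a median of 0.14 in place of −0.78, and clustered histone genes 6 of 16 higher and 1 lower, with a median of 0.70 in place of −1.16. The differences between these 2 comparisons were not tested.

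The wild-type construct gave a comparison of the same kind. Between the libraries labelled WT clone and the WT-Cre populations, 1119 of 13737 genes were higher and 1848 lower. The change in the mutants differed from that in wild type for 15 genes (0.109%), 9 with a positive and 6 with a negative difference, while 1698 had an unadjusted p under 0.05. DESeq2 called 203. Without WT clones 1 and 3, which were low in Nelfb, the number was also 15, with 13 positive and 2 negative differences, but only 3 of the first 15 were among them, Gm5662, Il11 and Sesn1. With the WT(N48) clones in place of the WT clones it was 17, with 8 positive and 9 negative, and Npnt alone of the first 15 was among them. Among the 15 were 2 of the 915 core genes, Ak4 and Npnt. Npnt, a matrix protein of basement membranes, fell in the mutants, from 45.9 to 69.6 CPM in the populations to 5.7 to 16.9 CPM in the clones, and stood at 63.2, 44.3 and 68.1 CPM in the libraries labelled WT clone and 41 and 54 CPM in WT-Cre, a difference of −2.77 (SE 0.46, adjusted p = 0.0428). Without WT clones 1 and 3 it was −2.33 and did not pass (adjusted p = 0.132 in edgeR's test). The WT(N48) clones held 170, 80.3 and 108 CPM of Npnt, and against them the difference was −3.78 (adjusted p = 0.0151). Mn1, a transcription cofactor, had 10.9 to 19.5 CPM in the mutant clones and 15.1 to 18.8 in their populations but 2.49 to 2.84 in the libraries labelled WT clone against 16.7 and 18 in WT-Cre. Its difference was 2.53, and 2.58 without WT clones 1 and 3 (adjusted p = 0.0581 in edgeR's test). The WT(N48) clones held 25.8, 9.89 and 55.9 CPM of Mn1, and with them the difference was −0.97 (adjusted p = 0.511).

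**Figure D5:**
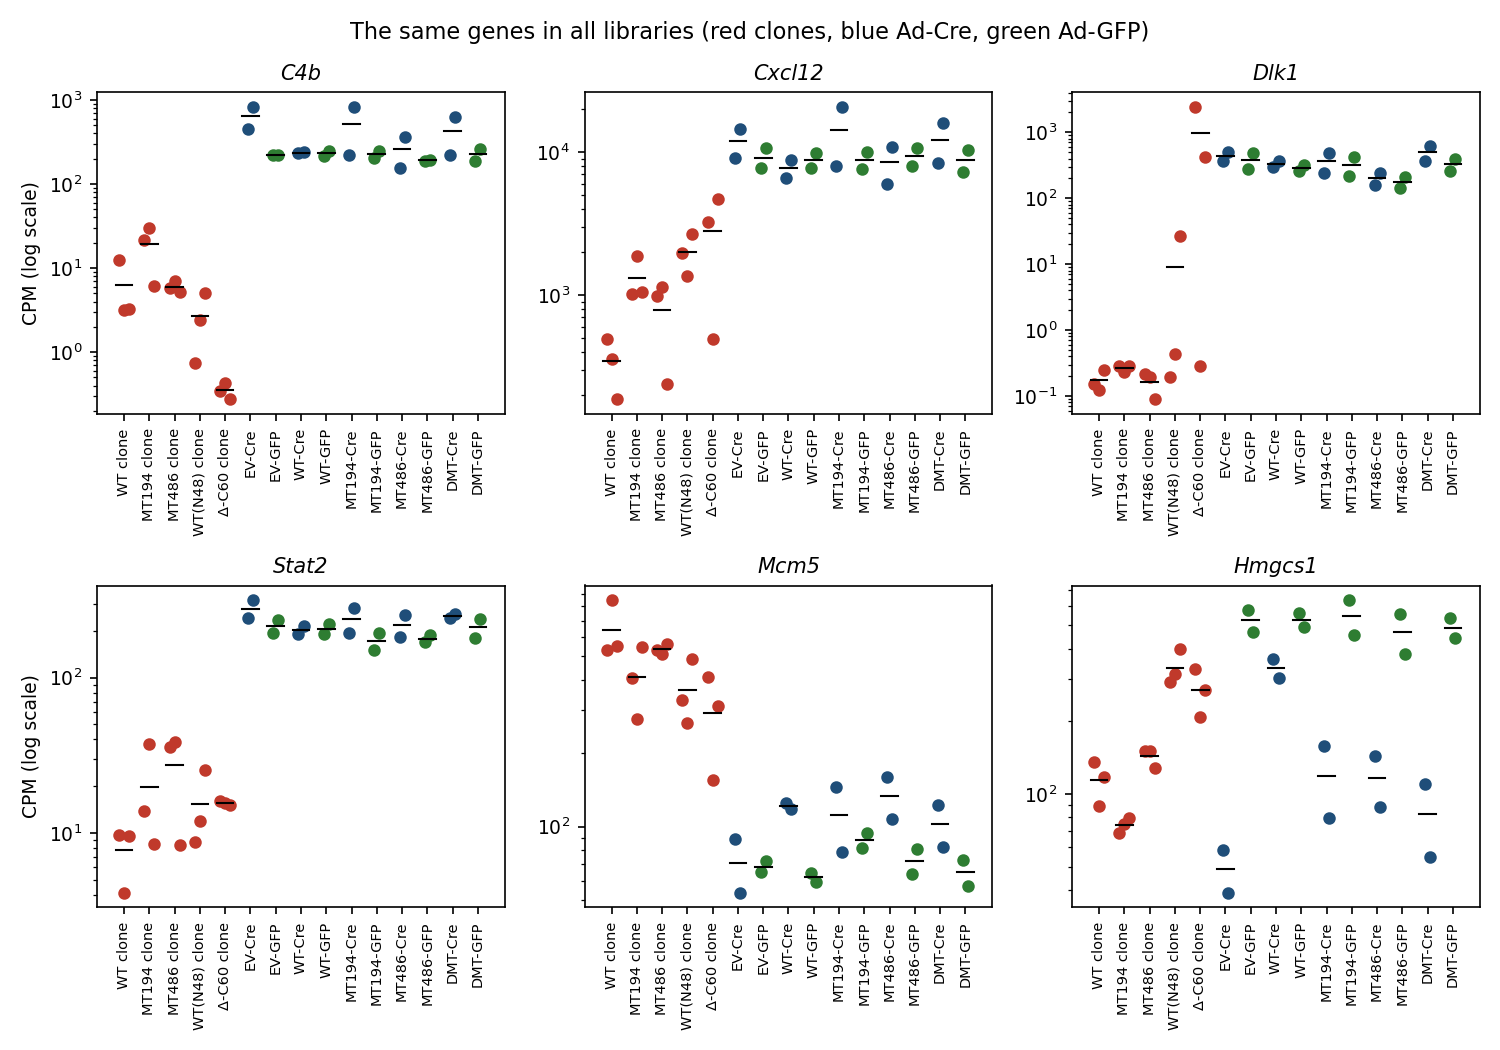
CPM on a log scale (y axis) of 6 genes in all 35 libraries by group (x axis), clones in red, Ad-Cre populations in blue and Ad-GFP populations in green, with 1 point per library and a bar at each group's mean. C4b and Stat2 are lower in each of the 15 clones than in each of the 20 populations, whereas 2 of 3 Δ-C60 clones hold Dlk1 at 426 and 2450 CPM.

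The calls were spread unevenly over the chromosomes, in the direction of the medians given above. Of the genes tested on chromosome 11, 9.48% were higher and 9.67% lower, and on chromosome 15, 9.16% and 8.78%. On chromosome 18, 0.57% were higher and 23.4% lower, and on chromosome 13, 1% and 17.5%. When each clone's median per chromosome was taken out as an offset, 217 higher and 737 lower genes were called in both mutants, and 735 of the 915 core genes were among them. The part of gene copy number in these medians was not tested.

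Length, level and GC content of the core genes were set beside those of the other genes as a description, with no test, since level bears on which genes are called. The 245 higher genes had a median exon length of 3402 bases and a median of 43.3 CPM, and the 670 lower genes 4248 bases and 9.04 CPM, against 4406 bases and 30.4 CPM for all other genes tested. GC content of the exons was 51.4%, 50.2% and 49.7% in the same order. Between 95.9% and 97.2% of the genes of each set matched the annotation by symbol.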

How the data were processed

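The deposited values were whole-number counts of reads per gene, which the authors made by aligning single reads to mm10 with bowtie2, dropping alignments with a mapping quality under 30 and counting on genes with HTSeq. Bowtie2 does not split reads across introns, so reads over exon junctions are largely missing, and the quality filter removes reads shared by near-copies. Strand setting and versions were not given in the sources used here, so a gene and its antisense partner cannot be told apart. Each file listed 24421 genes and the reads on no gene, which stayed out of library sizes.

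From the counts, edgeR 4.0.16 in R 4.3.3 (filterByExpr, TMM, robust quasi-likelihood fit) gave log2 fold changes, SEs (the fold change divided by the square root of F) and Benjamini-Hochberg adjusted p-values, over 13564 genes. The fit of both mutants had construct as a block over the 10 libraries, and each mutant, their difference and the difference from wild type were contrasts of group means. Where nothing says that clones of a group came from separate cultures, p-values measure the spread between these libraries only. Alternatives used DESeq2 1.42.0 and limma 3.58.1, other filters and thresholds, and left out libraries. Scripts were tested on simulated data. Promoters came from RefSeq (GRCm38.p6) and positions from GENCODE (GRCm38). Where the files hold 0 counts, a limit of 3 counts per library was used, which covers counting error only.

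The comparison, its members and the gene lists were chosen with earlier results of these data known. Genes were named by rule: the NELF subunits; of genes called in both mutants without overlap, the 10 largest changes in each direction with at least 10 counts in every library, the 5 most abundant and the on/off genes; from each list the largest called change in each direction and the most abundant member; and the largest differences between mutants or from wild type. Among the genes called in both mutants, symbols of Gm and digits or ending in Rik were passed over. Other genes given as list members were chosen after their values were seen. Some genes that the rule or the lists hold are not reported here.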

Additional observations from a re-analysis of the deposited data

Results flagged for a closer look

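The change from the Ad-Cre populations to the clones differed between the mutants for 2 genes by the interaction test in edgeR, with MT486 minus MT194 at −5.60 for Pde8a and −3.31 for Rassf4. It differed between the mutants and wild type for 15 genes, of which the 3 largest differences in each direction were named. Positive differences were 6.32 for Gm5662, a predicted gene at 0.529 to 3.12 CPM in the mutant clones and 0 to 0.305 in the libraries labelled WT clone, 2.53 for Mn1 and 1.98 for Tcp11l2. Negative ones were −3.68 for Il11, a cytokine at 1.15 to 2.64 CPM in the mutant clones and 6.88 to 15.9 in the libraries labelled WT clone, −3.16 for Mfap3l, at 2 to 6.64 CPM against 9.15 to 14.8, and −2.77 for Npnt. All 8 had an adjusted p between 0.00785 and 0.0428 in edgeR's quasi-likelihood test. Without WT clones 1 and 3, which were low in Nelfb, only WT clone 2 is left in its group. Il11 (−4.29, adjusted p = 0.0311) then passed, and Gm5662 did too, but WT clone 2 has 0 counts of it, so no size is given. Mn1 (2.58), Tcp11l2 (2.1), Mfap3l (−3.34) and Npnt (−2.33) did not pass, with adjusted p from 0.0581 to 0.132. With the WT(N48) clones in place of the WT clones, Npnt (−3.78, adjusted p = 0.0151) passed and the other 5 did not. Il11 stood at 2.01, 1.4 and 0.957 CPM in the WT(N48) clones, within or below the range of the mutant clones, and its difference was −0.86 (adjusted p = 0.561). Mn1 turned to −0.97 (adjusted p = 0.511), Tcp11l2 was at 0.54 and Mfap3l at −3.2.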

How the results depend on the processing

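Of the values of 101 named genes under 20 other fits of the clones against the Ad-Cre populations, no called one changed direction, 1881 kept their side of the threshold, 121 lost their call and 18 gained one. The number called with both mutants in the fit was 2459 and became 5163 at a log2 threshold of 0.5, 573 when edgeR's glmTreat tested against a log2 fold change of 1 and 768 with experiment 1 of the populations alone. For MT194 it was 1711, and 210 with glmTreat and 5 with experiment 1 alone. For MT486 it was 2090, and 3225 at 0.5, 264 with glmTreat, 1167 with MT486 clones 1 and 2 summed and 52 with experiment 1 alone. In both mutants 930 were called, and 1432, 113, 577 and 4 under the same 4 settings. Genes that differed between the mutants numbered 2, and 134 with DESeq2, 13 without a filter on low counts, 4 over all 35 libraries, 1 with glmTreat, 1 with the clones summed, and 0 with either experiment alone. Genes that differed from wild type numbered 15, and 203 with DESeq2 and 6 with the clones summed. Without WT clones 1 and 3 the number was 15, of which 3 were shared, and with the WT(N48) clones 17, of which 1 was shared and 11 of the first 15 kept their sign. Leaving out each library in turn gave 1797 to 2784 with both mutants in the fit, 115 to 2464 for MT194, 125 to 2445 for MT486, 85 to 1275 in both mutants, 0 to 146 between the mutants, 2647 to 3518 against Ad-GFP and 0 to 73 against wild type. The lowest values came without MT194-Cre 2, or without MT486-Cre 2 for MT486, without either WT-Cre library for wild type (0 in edgeR's test, with 883 and 1173 genes at an unadjusted p under 0.05), without MT486-GFP 2 for Ad-GFP, and without MT194 clone 1 or any 1 Ad-Cre library between the mutants. The highest came without MT194 clone 2, except 2784, without MT194-Cre 1, and 146, without MT486 clone 3. Where a group was left with 1 library, it was assumed to vary like the others. Of all calls, 27.5% were higher, and 23% to 35.9% over the other fits that kept the fold threshold, but 45.9% at a log2 threshold of 0.5 and 16.4% with glmTreat. The summed clones, the chromosome offsets and the single experiments were chosen after seeing the data.

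Replicate numbers of the populations were read as 2 experiments, which no label states. Deviations of MT194-Cre and MT486-Cre from their means correlated at 0.858 over 10548 genes, while those of same-numbered clones correlated at −0.00958 to 0.0498. With a replicate block within the populations, 2389 genes were called with both mutants in the fit, 1773 in MT194, 2146 in MT486, 988 in both and 5 between the mutants (Aldh3a1, Loxl2, Pde8a, Rassf4 and Smoc1).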
